A study of Mus musculus with 5 samples.

Results

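The genes described are the 6 that encode the ligands and receptors of platelet-derived growth factor (PDGF): Pdgfa, Pdgfb, Pdgfc, Pdgfd, Pdgfra and Pdgfrb. They were taken by symbol from a table of 23857 genes, and all 6 were listed. Expression was measured by bulk RNA sequencing of stromal cells sorted for YFP from the oviduct (fallopian tube) of young adult female mice. The control group of 2, mice 2 and 3, had Pdgfra-Cre and R26Y, a Rosa26-YFP reporter. The 3 mice labelled experimental, mice 1, 2 and 3, had the genotype Pdgfra-Cre;Esr1(fl/fl);R26Y, that is, a conditional knockout (cKO) of Esr1. All 5 mice therefore carried Pdgfra-Cre and the reporter, and only the second group carried floxed Esr1, the gene of estrogen receptor alpha. Cre was driven by Pdgfra sequence, so YFP marks cells that express Pdgfra or descend from cells that did. The labels name 1 mouse for each library. The stage of the estrous cycle and the construct of the Pdgfra-Cre line are not given in the sources used here.

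PDGF ligands are secreted dimers that bind a pair of receptor tyrosine kinases. The alpha receptor, encoded by Pdgfra, binds the A, B and C chains, and the beta receptor, encoded by Pdgfrb, binds the B and D chains. In many organs Pdgfra is expressed in fibroblasts and Pdgfrb in fibroblasts and mural cells, while endothelial cells are a known source of Pdgfb and epithelial cells of Pdgfa. Pdgfc and Pdgfd encode latent chains with a CUB domain, which has to be cut off by a protease before the ligand can bind.

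The bases just upstream of the start site are shown for 3 of the genes: Pdgfc, whose level separated the groups furthest, Pdgfd, the other ligand with a CUB domain, and Pdgfra, the gene behind the Cre line. Each run has 250 bases, 5′ to 3′ on the plus strand, which is the strand of all 3 genes, and ends at the base before the RefSeq start site in GRCm38.p6. Pdgfc is shown at chr3:81036166-81036415, Pdgfd at chr9:6168236-6168485 and Pdgfra at chr5:75152001-75152250. Capitals mark matches, on either strand, to a single arm of the estrogen response element (GGTCA, or TGACC on the other strand), to a GC box (GGGCGG) and to the letters TATAAA.
Pdgfc: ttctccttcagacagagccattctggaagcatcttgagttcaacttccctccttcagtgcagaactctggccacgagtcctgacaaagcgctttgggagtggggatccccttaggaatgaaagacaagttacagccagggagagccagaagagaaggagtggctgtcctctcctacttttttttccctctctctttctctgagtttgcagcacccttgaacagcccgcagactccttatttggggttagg
Pdgfd: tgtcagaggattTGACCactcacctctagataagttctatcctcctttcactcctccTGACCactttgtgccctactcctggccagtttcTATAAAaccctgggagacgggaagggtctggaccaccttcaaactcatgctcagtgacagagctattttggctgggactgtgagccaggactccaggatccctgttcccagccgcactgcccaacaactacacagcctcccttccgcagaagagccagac
Pdgfra: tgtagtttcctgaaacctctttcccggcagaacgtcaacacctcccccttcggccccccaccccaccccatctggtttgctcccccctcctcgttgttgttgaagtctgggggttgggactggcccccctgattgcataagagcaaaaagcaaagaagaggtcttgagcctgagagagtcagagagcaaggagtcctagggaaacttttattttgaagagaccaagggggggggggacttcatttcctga

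The full estrogen response element (GGTCANNNTGACC, which holds the arm on each strand) was found in none of the windows of these 3 genes or of Pdgfa. It was present in 0.0639% of the 32851 windows of the same length in the RefSeq table. The single arm was present in 35.2% of all windows. Pdgfd had 2 single arms and 1 TATAAA, letters that 12.4% of all windows hold. Pdgfc and Pdgfra had no match to any of these motifs, the GC box included, which 32.7% of all windows hold. Of the 6 genes, 4 were matched in this table. Pdgfa has 2 start sites there, with a single arm before 1 of them. A match describes letters in a short window and is no evidence of binding. The windows had a GC content of 50.8% for Pdgfc, 53.6% for Pdgfd and 54.4% for Pdgfra, against a median of 52.4% over all windows.

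Values were deposited as TPM, an abundance per transcript that is scaled by gene length and to the same total in each library. Levels of different genes can therefore be compared within a library. TPM holds no total depth. From the steps between low values of single-exon genes, the depth of the other libraries was roughly estimated at 47% to 80% of control mouse 2. The latter came out deepest and cKO mouse 1 shallowest. Only 28.7% to 36.9% of the values used lay within 0.1 of a whole read, so this order is uncertain. The estimate put the approximate number of reads behind a value of the 6 genes between about 204 and about 21100. The lowest was for Pdgfb in cKO mouse 3 and the highest for Pdgfra in control mouse 2. Such reads carry no molecular identifiers, so their number bounds counting error only. Esr1 was at 83.3 and 77.6 TPM in control mice 2 and 3 and at 28.9, 85.0 and 169.9 TPM in cKO mice 1, 2 and 3. It was below both controls only in the library of cKO mouse 1, so the level does not bear out the other 2 labels. Each direction below refers to labelled groups. Loss of single exons cannot be read from values per gene.

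The labelled cell type was checked against 8 fibroblast markers, which summed to 26741 and 20884 TPM in control mice 2 and 3 and to 18006, 13000.3 and 14874 TPM in cKO mice 1, 2 and 3. Dcn made up 37.8% to 52.0% of these sums. Without Dcn they were 16630 and 11820 TPM in the controls and 8662, 6236 and 7851 TPM in cKO mice 1, 2 and 3. In cKO mouse 1, 5 of the 8 fibroblast markers lay below both controls, and in cKO mice 2 and 3 all 8 did. Markers of other cells were also present, and none of the 49 markers in 7 lists was at 0 in any library. Epithelial markers summed to 2787 and 3087 TPM in the control libraries and to 2011.0, 11720 and 12615 TPM in cKO mice 1, 2 and 3. Most of this was Ovgp1, the oviductal glycoprotein, and the other 7 epithelial markers summed to 513.7 and 624.3 TPM in the control libraries and to 489.0, 1064 and 1357 TPM in cKO mice 1, 2 and 3. Immune markers summed to 1924 and 2521 TPM in the control libraries and to 1426, 923.1 and 662.5 TPM in the cKO libraries, and the myeloid gene Lyz2 made up 80.0% to 84.3% of them in every library. The other 7 immune markers summed to 377.3 and 395.2 TPM in the control libraries and to 263.2, 184.9 and 110.4 TPM in cKO mice 1, 2 and 3. In bulk samples, fewer cells of a type and less RNA per cell cannot be told apart. The libraries of cKO mice 2 and 3, with the highest epithelial sums, were also those labelled cKO with Esr1 above both controls. The part of epithelial cells in the Esr1 values was not tested.

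Pdgfra was the most abundant of the 6 genes in every library. It was at 225.3 and 187.5 TPM in control mice 2 and 3 and at 297.9, 231.0 and 164.9 TPM in cKO mice 1, 2 and 3. Both the highest and the lowest value belonged to the group labelled cKO, and the controls lay between them. Among the listed genes Pdgfra ranked between the 328th and the 770th place from the top. Controls averaged 206.4 ± 26.7 TPM (SD, n = 2), and the other group 231.3 ± 66.5 TPM (SD, n = 3). The 95% confidence interval of the log2 fold change, -0.50 to 0.76, holds both a fall and a rise, and the fitted value of 0.13 turned to -0.074 without cKO mouse 1 (limma, adjusted p 0.831 with all libraries and 0.817 without that mouse).

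Pdgfrb, the beta receptor, was at 87.1 and 94.8 TPM in control mice 2 and 3. It was at 95.2, 70.5 and 77.4 TPM in cKO mice 1, 2 and 3. The library of cKO mouse 1 lay just above both controls, and cKO mice 2 and 3 lay below both. The log2 fold change was -0.18 (standard error, SE, 0.18), with a 95% confidence interval of -0.61 to 0.26 (limma, adjusted p 0.660). It was -0.30 without cKO mouse 1 (limma, adjusted p 0.168) and -0.082 without cKO mouse 2 (adjusted p 0.904). Markers of pericytes, mural cells in which Pdgfrb is known to be abundant, summed to 197.1 and 197.2 TPM in the control libraries and to 161.0, 160.2 and 155.2 TPM in cKO mice 1, 2 and 3. The 7 markers did not move as one. Des was at 65.8 and 57.1 TPM in control mice 2 and 3. It was at 68.0, 34.7 and 31.0 TPM in cKO mice 1, 2 and 3. The other 6 summed to 131.3 and 140.1 TPM in the control libraries and to 93.0, 125.5 and 124.3 TPM in the cKO libraries. The part of pericytes in the Pdgfrb values was not tested.

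**Figure D1:**
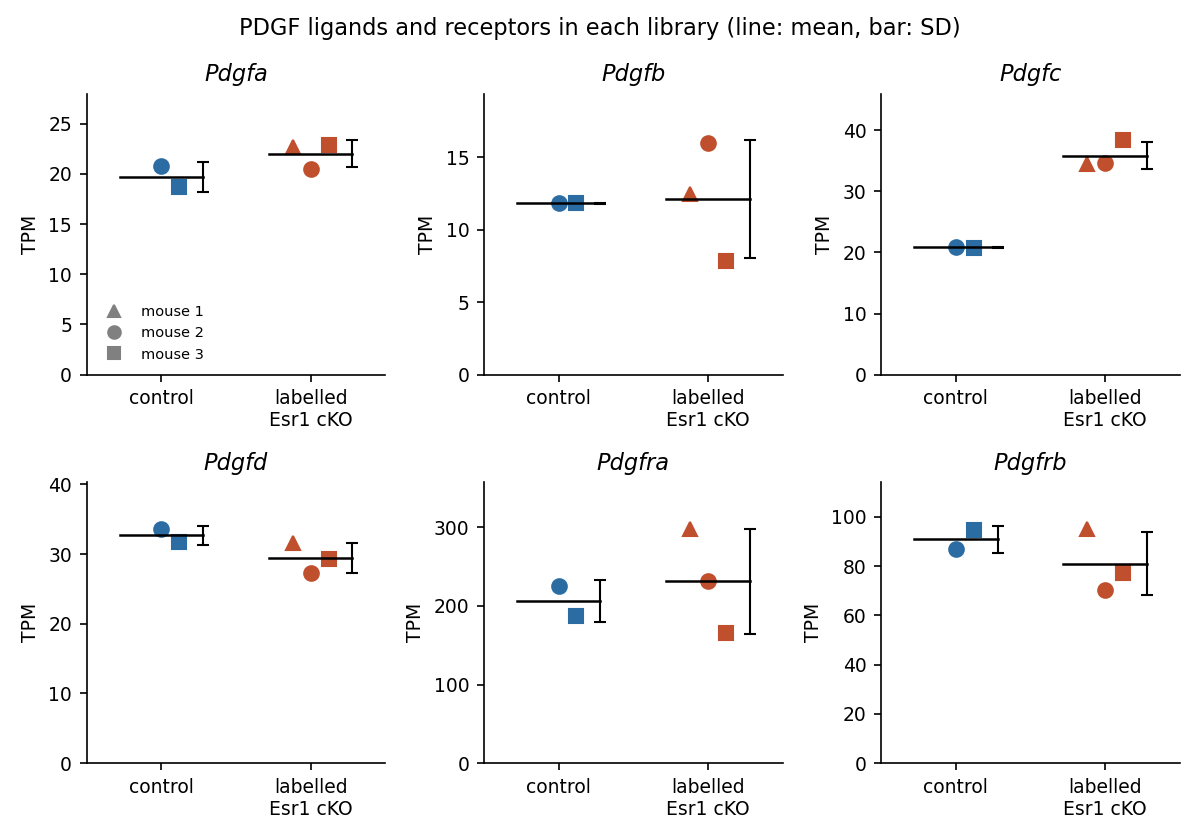
TPM of each gene (y axis, from 0) in the control and the labelled Esr1 conditional knockout (cKO) libraries (x axis). Each symbol is 1 library, with the mouse number as its shape, lines are group means and bars SD. Pdgfc is at 20.7 and 20.9 TPM in the control libraries and between 34.4 and 38.3 TPM in the other group, while Pdgfra and Pdgfb have their highest and their lowest value in the group labelled cKO.

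Pdgfra exceeded Pdgfrb in all 5 libraries. The ratio of their TPM was 2.59 and 1.98 in control mice 2 and 3 and 3.13, 3.28 and 2.13 in cKO mice 1, 2 and 3. The library of cKO mouse 3 lay between the controls, so the groups overlapped. Receptor transcripts outweighed ligand transcripts throughout, with summed receptor TPM 3.59 and 3.40 times the summed ligand TPM in the control libraries and 3.89, 3.07 and 2.46 times in cKO mice 1, 2 and 3.

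Among the ligands, Pdgfc was the one with the largest difference. This gene, at chromosome 3 from 81036416 to 81214040 (GENCODE M21, GRCm38), encodes the C chain, a ligand of the alpha receptor. Control mice 2 and 3 had 20.9 and 20.7 TPM of it, and the libraries labelled cKO had 34.4, 34.6 and 38.3 TPM in mice 1, 2 and 3. The lowest of the 3 libraries labelled cKO was 1.64 times the higher control. Controls averaged 20.8 ± 0.13 TPM (SD, n = 2), and the other group 35.8 ± 2.22 TPM (SD, n = 3), a ratio of 1.72. On the log2(TPM + 1) scale, which understates changes of low genes, the fold change was 0.75 (SE 0.16), with a 95% confidence interval of 0.37 to 1.13. The unadjusted p was 0.00238 in limma, and after adjustment over 19292 tested genes it was 0.188, which did not pass 0.05. The exact permutation p was 0.1, the smallest that the 10 assignments of 5 libraries allow.

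Of the 6 genes, 0 had an adjusted p under 0.05 in limma, where 0.0259% of all tested genes did. At an unadjusted p under 0.05 there was 1 of 6, Pdgfc, against 13.6% of all tested genes. The groups did not overlap for 2 of 6, Pdgfc and Pdgfd, against 33.9% of all tested genes. Separation of the groups was thus common in these libraries and does not single out either gene. Without the library of cKO mouse 1, the Pdgfc log2 fold change was 0.78 (SE 0.13, limma adjusted p 0.031). In that fit 5.35% of the tested genes were called higher, 2.63% lower and 7.98% in either direction. The library left out, with Esr1 at 28.9 TPM, is the only one labelled cKO with Esr1 below both controls. That fit thus compares the controls with 2 libraries whose Esr1, at 85.0 and 169.9 TPM, was above both controls. With libraries weighted by their scatter the Pdgfc log2 fold change was 0.74 with an adjusted p of 0.039 (limma), where 3.4% of genes were called.

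Pdgfc was also compared with the marker lists that moved between libraries. The epithelial markers other than Ovgp1 summed to 513.7 and 624.3 TPM in the control libraries. In cKO mouse 1 they summed to 489.0 TPM, with Pdgfc at 34.4 TPM. In cKO mice 2 and 3 they summed to 1064 and 1357 TPM, with Pdgfc at 34.6 and 38.3 TPM. Summed fibroblast and immune markers were lower than in both controls in all 3 libraries labelled cKO, and the part of epithelial, fibroblast and immune cells in the Pdgfc difference was not tested.

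**Figure D2:**
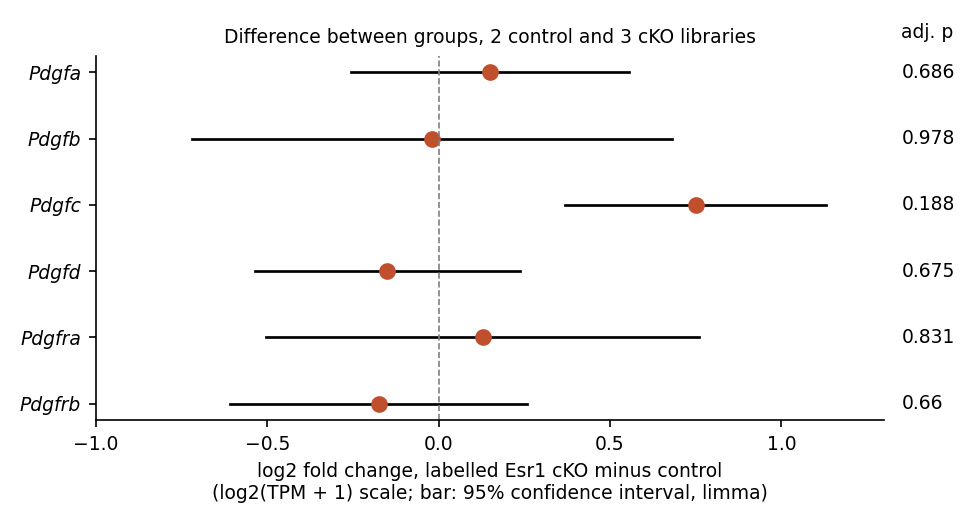
Log2 fold change of each gene (x axis, libraries labelled Esr1 conditional knockout minus control, log2(TPM + 1) scale) with its 95% confidence interval from limma as a bar, for 2 control and 3 cKO libraries. The interval lies above 0 for Pdgfc (0.37 to 1.13) and includes 0 for the other 5 genes, and none of the adjusted p-values at the right passes 0.05.

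Pdgfd encodes the other ligand with a CUB domain, a ligand of the beta receptor. It was the most abundant ligand in the control libraries, at 33.6 and 31.7 TPM. It was at 31.6, 27.3 and 29.3 TPM in cKO mice 1, 2 and 3. All 3 lay below both controls, cKO mouse 1 by a margin smaller than the gap between the controls. The log2 fold change was -0.15 (SE 0.16), with a 95% confidence interval of -0.54 to 0.24 (limma, adjusted p 0.675, exact permutation p 0.2). It was -0.099 without cKO mouse 2.

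Pdgfa, the A chain, spread little over the 5 libraries, with the highest value 1.22 times the lowest, close to the 1.23 times of Pdgfd. It was at 20.8 and 18.7 TPM in control mice 2 and 3 and at 22.7, 20.5 and 22.9 TPM in cKO mice 1, 2 and 3. The library of cKO mouse 2 lay between the controls and the other 2 above them. The log2 fold change was 0.15 (SE 0.17, limma, adjusted p 0.686), and the 95% confidence interval, -0.25 to 0.56, excludes a rise of the size fitted for Pdgfc. The value was 0.078 without control mouse 3.

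Pdgfb, the B chain, was the least abundant member in every library. Its controls were close together at 11.8 TPM each. The libraries labelled cKO spread to both sides of them, at 12.5, 16.0 and 7.87 TPM in mice 1, 2 and 3. The log2 fold change was -0.020 (SE 0.29), with a 95% confidence interval of -0.72 to 0.68 (limma, adjusted p 0.978). It was 0.24 without cKO mouse 3 and -0.23 without cKO mouse 2. Endothelial markers summed to 171.6 and 207.3 TPM in the control libraries and to 156.6, 223.1 and 140.0 TPM in cKO mice 1, 2 and 3. Both this sum and Pdgfb were highest in cKO mouse 2 and lowest in cKO mouse 3. In cKO mouse 1 Pdgfb was above both controls while the sum was below both. Platelet and megakaryocyte markers, from another known source of Pdgfb, summed to 94.5 and 97.3 TPM in the control libraries and to 61.4, 46.8 and 46.9 TPM in the cKO libraries. Pf4 made up 68.6% to 88.8% of these sums, and Gp1bb of the same list was at 1.85 and 1.82 TPM in the control libraries and at 0.836, 5.65 and 3.74 TPM in cKO mice 1, 2 and 3. The part of these cells in the Pdgfb values was not tested.

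The order of the ligands by level differed between the groups. In the controls it was Pdgfd, then Pdgfc and Pdgfa, then Pdgfb, and Pdgfc and Pdgfa did not differ beyond the spread between mice. In each library labelled cKO it was Pdgfc, Pdgfd, Pdgfa, Pdgfb. Of the summed ligand TPM, Pdgfc made up 24.0% and 25.0% in the control libraries and 34.0%, 35.2% and 39.0% in cKO mice 1, 2 and 3. Pdgfd made up 38.6% and 38.2% in the control libraries and 31.2%, 27.8% and 29.8% in the cKO libraries. The summed ligand TPM was 87.2 and 83.0 in the control libraries and 101.2, 98.4 and 98.4 in the cKO libraries. The ratio of Pdgfc to Pdgfd was 0.622 and 0.654 in the control libraries and 1.09, 1.27 and 1.31 in the cKO libraries, and does not depend on how a library is scaled. These shares and ratios restate the levels above and were not tested.

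**Figure D3:**
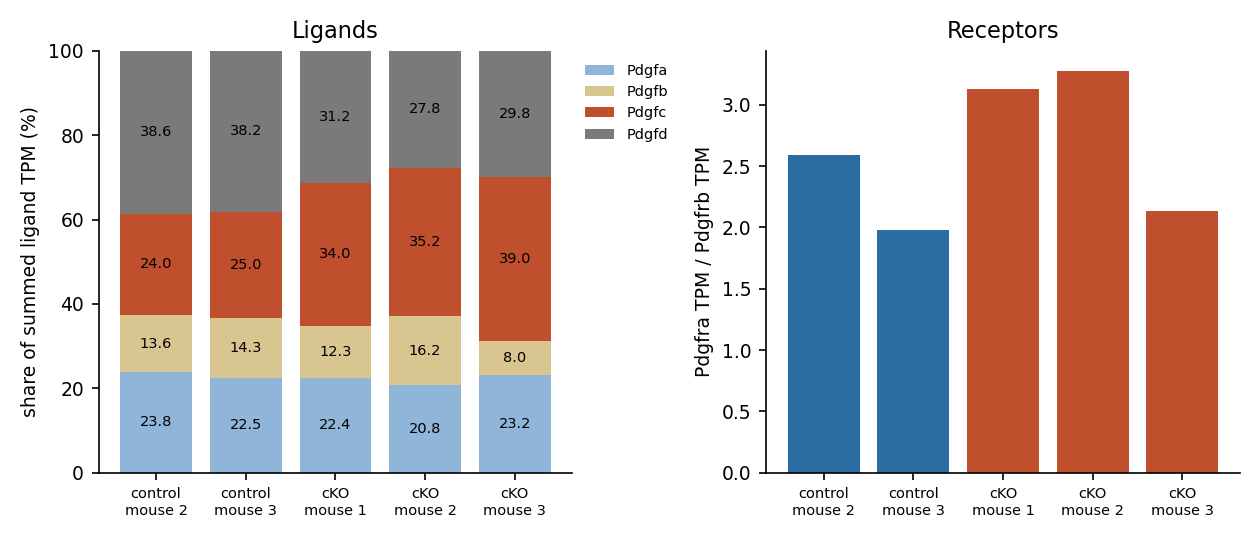
Left, the share of each ligand in the summed TPM of the 4 ligands (y axis, percent) in each library (x axis). Right, the ratio of Pdgfra to Pdgfrb TPM in the same libraries, blue for control and red for the libraries labelled Esr1 conditional knockout (cKO). The Pdgfc share is 24.0% and 25.0% in the control libraries and 34.0% to 39.0% in the other group, while the receptor ratio of cKO mouse 3, at 2.13, lies between the controls.

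Genes whose pattern over the 5 libraries was nearest to that of each receptor were sought among 6990 others with a mean of at least 20 TPM, by the root mean square difference of centred log2(TPM + 1) values. For Pdgfra the 5 nearest were Lama2, Pid1, Heg1, Cst3 and Rap2c, at 0.083 to 0.103. Lama2, the laminin alpha 2 chain, was at 207.6 and 160.5 TPM in the control libraries and at 230.9, 190.9 and 144.6 TPM in cKO mice 1, 2 and 3. For Pdgfrb the nearest included Fads3, C1qtnf1, Sumf1 and Rsrp1, at 0.044 to 0.058. A difference of at most 0.1 was reached by 3 genes for Pdgfra and 63 for Pdgfrb. The nearness is a description over 5 libraries that share their scaling.

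The other genes of PDGF signalling were described through a list of 66, all of which passed the filter on low values. None had an adjusted p under 0.05 in limma, and 2 were higher and 3 lower at an unadjusted p under 0.05. That is 3.03% and 4.55% of the list, against 3.7% and 9.87% of all tested genes. Of the list, 65 genes had a mean of at least 5 TPM. In the fit of the 12608 genes at that level, 643 were higher and 746 lower at an unadjusted p under 0.05 (limma). Higher and lower genes were thus nearer in number there than among all tested genes. The groups did not overlap for 7 genes above and 8 below the controls. That is 10.6% and 12.1% of the list, against 11.9% and 21.9% of all tested genes. Genes without overlap were not counted among those with a mean of at least 5 TPM. The median log2 fold change was 0.10, against -0.022 over all tested genes. Among genes with a mean of at least 5 TPM it was 0.10 for the list and 0.099 for all genes. By its median, the list thus did not stand apart from genes above that level. Log2 fold changes were above 0 for 40 genes and below 0 for 26. That is 60.6% of the list above 0, against 47.8% of all tested genes. Most genes with a mean of at least 5 TPM were above 0, since their median was 0.099. The list median was -0.0090 after quantile normalization, against 0.022 over all tested genes, low ones included.

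Proteases that release or process PDGF chains numbered 7, and none reached an unadjusted p under 0.05. Plat, the tissue plasminogen activator, which is known to activate the C chain, was at 202.3 and 325.9 TPM in the control libraries and 308.9, 358.0 and 247.3 TPM in cKO mice 1, 2 and 3. Plau, which encodes urokinase, an activator of the D chain, was at 100.4 and 54.3 TPM in the control libraries and 95.9, 80.2 and 54.1 TPM in the cKO libraries. Both proteases spread as widely within a group as between groups. The 4 genes that bind PDGF or resemble or assist its receptors were Lrp1, Nrp1, Sparc and Pdgfrl. All 4 had log2 fold changes below 0, between -0.038 and -0.24, with unadjusted p from 0.349 to 0.840 (limma), and 3 of the 4 did after median-of-ratios scaling.

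Of 32 adaptors and effectors downstream of the receptors, 27 had log2 fold changes above 0. That is 84.4%, against 47.8% of all tested genes. The latter share includes low genes. Among genes with a mean of at least 5 TPM most were above 0, and the exact share was not counted. The median was 0.21, against 0.099 over all genes with a mean of at least 5 TPM, a level that all 32 reached. After quantile normalization 23 were above 0 and the median was 0.081, against 0.022 over all tested genes, low ones included. Gab1, a docking protein, was at 33.8 and 35.1 TPM in the control libraries and at 43.5, 55.2 and 61.7 TPM in cKO mice 1, 2 and 3 (log2 fold change 0.60, limma unadjusted p 0.0174, adjusted p 0.288). Fyn, a kinase of the Src family, was at 87.9 and 63.3 TPM in the control libraries and at 45.0, 40.4 and 42.7 TPM in the cKO libraries (log2 fold change -0.79, limma unadjusted p 0.00434, adjusted p 0.198). Neither overlapped with its controls. Fyn is also expressed in lymphocytes. The T cell marker Cd3e was at 9.76 and 13.7 TPM in the control libraries and at 35.9, 17.2 and 2.57 TPM in cKO mice 1, 2 and 3. The part of lymphocytes in the Fyn values was not tested.

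Several adaptors were high in cKO mice 2 and 3 and not in mouse 1. Nck2, an adaptor that binds tyrosine-phosphorylated receptors, was at 30.5 and 30.6 TPM in the control libraries, at 28.1 TPM in cKO mouse 1 and at 59.3 and 60.0 TPM in cKO mice 2 and 3. Stat5a, a transcription factor activated by tyrosine kinases, was at 31.2 and 24.1 TPM in the control libraries, at 20.5 TPM in cKO mouse 1 and at 54.5 and 54.8 TPM in cKO mice 2 and 3. This is the split seen in the summed epithelial markers, whose part was not tested. Without cKO mouse 1, 9 of the 66 genes were called in limma, 13.6% of the list, against 7.98% of all genes in that fit. That fit leaves out the only library labelled cKO with Esr1 below both controls. Gab1, Nck1, Nck2, Src, Stat5a, Spry1 and Kit rose, with log2 fold changes from 0.57 to 1.51, and Fyn and Csf1r fell, by 0.83 and 1.26 on the log2 scale. Nck1, Nck2, Src, Stat5a and Kit are named because of these values.

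**Figure D4:**
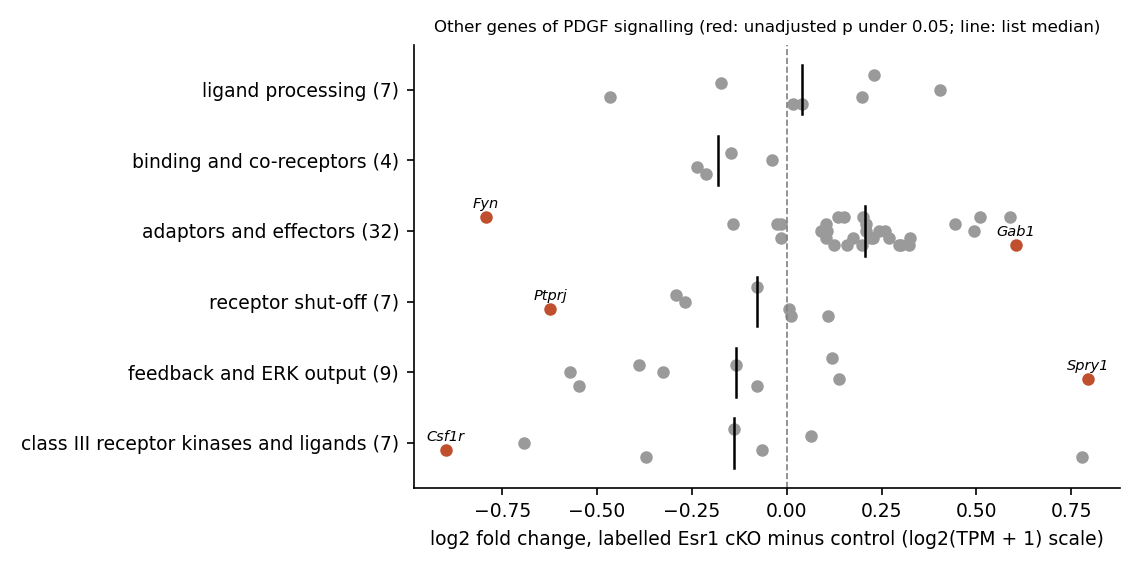
Log2 fold change (x axis, libraries labelled Esr1 conditional knockout minus control, log2(TPM + 1) scale) of the 66 other genes of PDGF signalling, grouped by role, with the number of genes in each group. Each point is 1 gene, red with its name at an unadjusted p under 0.05, and the vertical line is the group's median. The 32 adaptors and effectors have a median of 0.21, and 5 genes in all are red.

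Spry1 had the smallest p of the 66. It encodes a Sprouty protein, a feedback inhibitor of receptor tyrosine kinase signalling. Control mice 2 and 3 had 36.1 and 36.8 TPM of it, and the other group had 60.0, 67.6 and 64.3 TPM in cKO mice 1, 2 and 3. All 3 lay above both controls, as they did for Pdgfc, and here too cKO mouse 1 went with the other 2. The log2 fold change was 0.79 (SE 0.15, limma, unadjusted p 0.00134, adjusted p 0.157). The related Spry2 and Spry4 went the other way in value: Spry2 was at 60.2 and 54.0 TPM in the control libraries and at 47.3, 43.4 and 45.3 TPM in the cKO libraries. Spry4 was at 16.5 and 15.0 TPM in the control libraries and at 11.2, 12.7 and 11.6 TPM in the cKO libraries. Like Spry1, neither passed the adjusted threshold, with unadjusted p of 0.0753 and 0.0724 and adjusted p of 0.403 and 0.399 (limma). For both, all 3 libraries labelled cKO lay below both controls, where 21.9% of all tested genes did. Of the 9 genes of feedback and ERK output, 6 had log2 fold changes below 0, and the median was -0.13. That leaves 33.3% above 0, against 47.8% of all tested genes, a share that includes low genes.

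Genes that shut the receptors off numbered 7, with a median log2 fold change of -0.078. Ptprj, a receptor phosphatase that dephosphorylates PDGF receptors, was at 38.7 and 34.6 TPM in the control libraries and at 26.25, 25.97 and 18.78 TPM in cKO mice 1, 2 and 3 (log2 fold change -0.62, limma unadjusted p 0.0195, adjusted p 0.297). Cbl and Cblb, ubiquitin ligases that mark active receptors for breakdown, had log2 fold changes of 0.0059 and -0.27 and unadjusted p of 0.974 and 0.236 (limma).

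The receptors most closely related to those of PDGF are Kit, Csf1r and Flt3, the other class III receptor tyrosine kinases in the list. Kit, the stem cell factor receptor, was at 22.5 and 16.3 TPM in the control libraries and at 11.5, 45.9 and 69.5 TPM in cKO mice 1, 2 and 3, below both controls in mouse 1 and above both in the other 2. Csf1r, the receptor of macrophage colony-stimulating factor, was at 97.1 and 95.5 TPM in the control libraries and at 85.4, 44.3 and 35.3 TPM in the cKO libraries (log2 fold change -0.90, limma unadjusted p 0.0382, adjusted p 0.347). Csf1r is a macrophage gene, and 7 of 8 immune markers lay below both controls in all 3 libraries, where 21.9% of all tested genes did. The macrophage marker Adgre1 was at 47.6 and 46.8 TPM in the control libraries and at 35.5, 21.8 and 15.6 TPM in cKO mice 1, 2 and 3. The part of macrophages in the Csf1r values was not tested. Cpa3, a mast cell marker, was at 65.7 and 86.3 TPM in the control libraries and at 21.8, 16.4 and 19.3 TPM in the cKO libraries. Mast cells also express Kit, and their part in the Kit values was not tested.

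**Figure D5:**
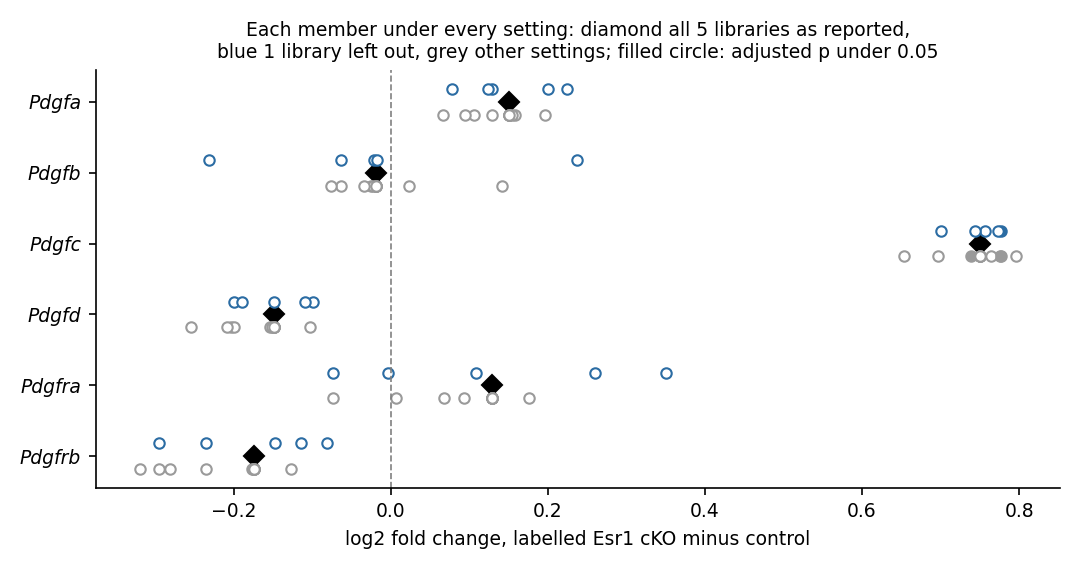
Log2 fold change of each gene (x axis) as reported (diamond), with 1 library left out (blue) and under the other settings (grey), with filled circles for an adjusted p under 0.05. Pdgfc stays between 0.65 and 0.80, and Pdgfra and Pdgfb have values on both sides of 0.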

How the data were processed

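The deposited table holds TPM per gene and library, made by the authors, and each library sums to 1000000 over 23857 genes. STAR is in the table's name, and mm10 is the build per the submitters' processing notes. The gene counter, annotation, versions and read filters are not given in the sources used here. Total RNA was taken from the sorted cells and libraries were made with a low-input SMARTer kit, per the labels' protocols.

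Values were converted to log2(TPM + 1), with a pseudocount of 1, and tested with limma (version 3.58.1, under R 4.3.3) on all 5 libraries. The model had 1 term, genotype, and the variances were moderated by eBayes along a trend in mean level. Genes at 1 TPM or more in at least 2 libraries were tested, 19292 in all. P-values were two-sided and adjusted by the Benjamini-Hochberg method over all tested genes, with a threshold of 0.05. Each of the 6 genes also got an exact two-sided permutation test, which has 10 ways to assign the libraries. The fit and the depth estimate were checked on simulated data, and the motif search on a few made-up strings. Most simulated depth values lay on whole reads, unlike the real ones, so that check does not cover the scatter of the real values.

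Approximate reads use the longest GENCODE M21 transcript, and between 28.7% and 36.9% of the values used lay within 0.1 of a whole read, so they are rough. Promoter windows came from RefSeq (GRCm38.p6). Python 3.11.15 was used for these steps and the figures.

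The genes, gene lists, alternatives and naming rule were chosen with earlier results of these data known. Named were the 6 genes, Esr1, list genes past the threshold, up to 3 with the smallest p per list and direction where any had an unadjusted p under 0.05, and the 5 nearest patterns of each receptor. One of the latter is not reported here. A few others were named as examples by their role. Alternatives changed the pseudocount, the filter, the scaling, the variance model, the library weights or the threshold, added the mouse number as a block, or left out 1 library.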

Additional observations from a re-analysis of the deposited data

How the results depend on the processing

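For the 6 genes, 102 log2 fold changes were computed under 17 alternatives each. Of these, 93 had the same sign and the same call, 3 came to pass it and 6 changed sign. The 3 were all of Pdgfc: with library weights (0.74), with the mouse number as a replicate block (0.78) and without cKO mouse 1 (0.78, within a range of 0.70 to 0.78 over the fits that left out 1 library). Its adjusted p ran from 0.0284 to 0.830. Pdgfb changed sign with library weights (0.14) and median-of-ratios scaling (0.023), and ranged from -0.23 to 0.24 with 1 library left out. Pdgfra changed sign with the replicate block (-0.074), and ranged from -0.074 to 0.35 with 1 library left out. The median of the 66 pathway genes was -0.0090 after quantile normalization. The cause was not tested.

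Counts of genes called depended on the setting. Called members numbered 0, and 1 with library weights, with the replicate block, and in 1 of the fits without 1 library (range 0 to 1). Pathway genes called higher and lower numbered 0 and 0, 2 and 2 with library weights, 6 and 4 with the replicate block, and 0 to 7 and 0 to 2 with 1 library left out. Over all genes, 2 were called higher and 3 lower. These were 14 and 22 at a threshold of 0.1, 260 and 396 with library weights, 1165 and 693 with the replicate block, 0 and 0 with a pseudocount of 0.1 and with a mean of at least 5 TPM. With 1 library left out they ranged from 0 to 1022 higher and 0 to 502 lower, the highest without cKO mouse 1. The higher genes numbered 0 with quantile normalization, median-of-ratios scaling and eBayes without trend, and 1 with robust eBayes and when low genes were left in. The lower genes numbered 5 without Rpph1 and Rn45s. Unadjusted, 713 genes were higher and 1904 lower at 0.05, against 1195 and 1378 with quantile normalization and 1289 and 1711 with median-of-ratios scaling.

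The block rests on mice 2 and 3 alone, since mouse 1 has no partner, and gives the fold changes of the fit that leaves out cKO mouse 1. Neither fold change draws on that library, the only one labelled cKO with Esr1 below both controls. Same-numbered libraries had deviations from their group means that correlated at -0.06 and -0.072 across genes, and the libraries share only a number. In fits with 1 control left, that control is assumed to vary like the other group. With 2 controls and 3 other mice, a permutation test cannot go below 0.1, and the spread of a control group of 2 is poorly known.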
